A study of Homo sapiens with 24 samples.

Results

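A498 and 786-O (786O in the labels) are established cell lines from human renal cell carcinoma, and the RNA of their control cells was compared here. The comparison used the Cy3 channel of 6 two-colour arrays out of 24 in the series, chosen by cell line from the labels. A498 had 2 arrays and 786-O had 4. In 1 A498 and 1 786-O array the cells had been transfected with a control siRNA, and these arrays were of a first array design (SurePrint G3 8x60K). In 1 further array of each line the cells had been transfected with a control miRNA, and the other 2 arrays of 786-O held cells with no treatment, the controls of a 12 h and of a 24 h CXCL10 experiment. These 4 arrays were of a second design. The Cy5 channel held cells that had received an siRNA against CAV2, miR-27b or CXCL10, and it was set beside the control channel only as a check. Transfection was with Lipofectamine RNAiMAX, and the cells were grown in RPMI or DMEM, but the labels do not say which line had which medium. Each line comes from 1 tumor, so every difference below is between these lines.

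Renal cell carcinoma of the clear cell type arises from tubule epithelium, and loss of VHL is its best known genetic change. The VHL protein marks the alpha subunits of the hypoxia-inducible factors for destruction after they have been hydroxylated by the EGLN enzymes. Without it the subunits, encoded by HIF1A and EPAS1, persist and drive genes of glycolysis, angiogenesis and pH control. Both lines are known to carry inactive VHL, and 786-O is known as a line in which EPAS1 makes the active subunit.

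Levels are given as log2 signal minus log2 of the 75th percentile of the array's spots, so that 0 is the brightness of a spot at that percentile, and they are compared only between arrays for the same probe. They are listed in a fixed order, for A498 the control siRNA and the control miRNA array, and for 786-O the control siRNA array, the control miRNA array and the 12 h and 24 h arrays with no treatment. The first array of each line is thus of the first design and the others are of the second. The 75th percentile of the signal was 502 and 559 on the arrays of the first design and 290.1 to 378 on those of the second. Of the spots, 54.2% to 64.3% were well above background. Over 22430 tested probes, pairs of arrays from different lines had Pearson correlations of 0.85 to 0.871, and pairs from the same line 0.926 to 0.985. The arrays of 786-O were not alike. The SD of the difference was 0.54 between the 2 arrays with no treatment, but 1.09 and 1.19 between these and the control miRNA array of the same design. Both lines lay on 1 slide within each design. The number of arrays limits the precision, and nothing in the labels says that arrays of 1 line came from separate cultures.

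The lineage of both lines was checked against markers. PAX8, a transcription factor that marks renal epithelium, had levels of 1.39 and 2.97 in A498 and 2.30, 2.09, 2.78 and 3.95 in 786-O. PAX2, of the same family, had 0.97 and 2.06 in A498 and 1.15, 1.06, 2.24 and 2.41 in 786-O. Both were well above background on all 6 arrays, the lines overlapped, and neither was called (limma adjusted p = 0.727 and 0.979). Of 21 renal lineage transcription factors measured, 13 to 14 were well above background in A498 and 12 on each array of 786-O. This count did not set the renal lines apart, since it was 5 to 13 on the arrays of the other lines. The summed levels of these factors, on the linear scale, were 30.76 and 59.26 in A498 and 23.62 to 48.16 in 786-O. On the arrays of the other lines they were lower, 2.04 to 11.02. A sum follows its brightest members, and the median levels of these factors overlapped with the other lines. They were -4.45 and -3.62 in A498, -5.08 to -2.08 in 786-O and -6.45 to -3.93 on the other arrays. The summed levels of 30 proximal tubule genes overlapped too. They were 18.4 and 29.8 in A498, 12.2 to 69.9 in 786-O and 6.73 to 34.3 on the other arrays. Markers of other cell types were also looked at, because a culture can hold other cells. The leukocyte list of 15 genes had summed levels, on the linear scale, of 7.03 to 8.04 in A498 and 2.84 to 10.4 in 786-O, with 8 to 9 and 9 to 10 members well above background. CD68, a lysosomal protein, was the called member, higher by 2.59 and 2.44, and the T cell marker CD3E was well above background on no array. The 12 endothelial markers summed to 3.21 to 4.8 and 0.722 to 2.28, with PECAM1 well above background on no array, and TEK was the called member of 4 tested. The 12 fibroblast and smooth muscle markers summed to 2.97 to 5.02 and 1.15 to 5.06, with DES called higher and LUM lower of 6 tested. None of 5 tested prostate markers was called. The 10 squamous markers summed to 37.8 to 76.3 and 0.544 to 1.97. SFN, the tested member of this list, was called higher by 6.28 and 6.54, while TP63 and KRT5 were well above background on no array.

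A gene was called different where its brightest tested probe differed by more than 1 on the log2 scale in the same direction on each design, and limma with array design as a term gave an adjusted p under 0.05. Of 14548 tested genes, 997 were called higher in A498 (6.85%) and 674 lower (4.63%). These shares are the background for every count of called list members below. Among the called genes, 273 were higher and 147 lower by more than 4 on the log2 scale on both designs. Size alone, without the test, gave 1687 higher and 963 lower genes, and 34 genes were past 1 in opposite directions on the 2 designs. Of the genes past 1 on the first design, 68.4% were past 1 in the same direction on the second, and 61.5% the other way round. The differences on the 2 designs had a Pearson correlation of 0.865 over the tested genes, as a description, since genes do not vary apart from each other. A probe passed the filter through 1 line only where it was not well above background on every array of the other line. For 357 of the higher and 212 of the lower genes it was so on no array of the other line, and for further genes on some. Genes of the first kind had to differ and the filter favoured a difference in the others, so their differences are a description. With only probes well above background on all 6 arrays tested, 388 of the higher and 300 of the lower genes were called.

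**Figure D1:**
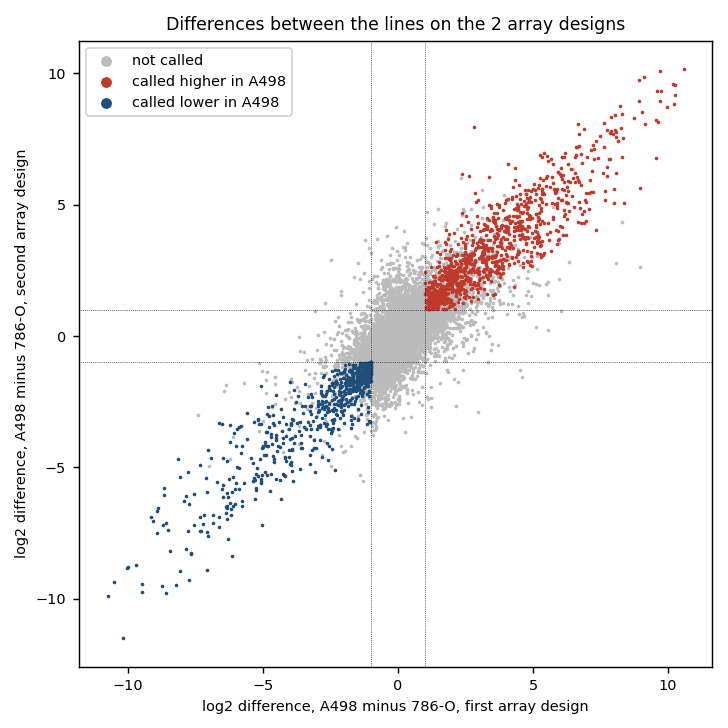
Each point is a gene, with the log2 difference A498 minus 786-O on the first array design on the x axis and on the second design on the y axis; dotted lines mark differences of 1 and -1, red and blue points are genes called higher and lower in A498. Of the 14548 tested genes 14523 are drawn, without XIST and the genes of chromosome Y, and the called genes lie along the diagonal out to differences past 10.

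The calls moved with single arrays of 786-O. Without the array of the 12 h control with no treatment, 594 genes were called higher and 344 lower, of which 587 and 338 were among the genes called with all arrays. Without the control miRNA array the counts were 1320 and 846, and without the 24 h control 832 and 477. With the control miRNA array as the only 786-O array of the second design, so that both lines had only transfected cells, 1780 and 1075 genes were called, and 982 and 649 of these were among the 997 and 674. In the Cy5 channel of the arrays whose treatment both lines shared, 1671 of 1671 called genes had the same direction on both designs, and 1541 (92.2%) were past 1 on both. The Cy5 signals come from the same arrays and lines, so they are no independent set.

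The largest differences were mostly of genes that were bright in 1 line and not well above background in the other. NEFM, the medium chain of neurofilaments, had levels of 3.21 and 3.71 in A498 and -7.37, -5.20, -7.12 and -7.02 in 786-O. The groups did not overlap, and NEFM was at least 579.8-fold higher in A498, as a description, since its probe was well above background on no array of 786-O and so was tested through A498 alone. This fold is an approximate lower bound, with both designs weighted equally. It was computed against the dimmest signal that counted as well above background on each array of the dim line. Where the gene's own level there was brighter, that level was used. Some probes brighter than this dimmest signal did not count as well above background, so the bound is not strict. The same bound was 277-fold for TSTD1, a sulfurtransferase, 372-fold for ARHGAP44, a GTPase-activating protein, and 298-fold for SBSPON, a secreted matrix protein. The other tested probe of ARHGAP44 had a mean difference of 1.56 on the log2 scale and was not called. PHGDH, which catalyses the first step of serine synthesis from glycolysis, had levels of 1.53 and 2.95 in A498 and -7.56, -6.60, -7.12 and -7.05 in 786-O. It was at least 249-fold higher in A498, and no array of 786-O was well above background. SELENBP1, a selenium-binding enzyme, was at least 255-fold higher in A498, RPL39L, a paralog of a ribosomal protein, at least 208-fold, and ZFP42, a zinc finger factor of pluripotent cells, at least 149-fold.

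HSPB2 and CRYAB, small heat shock proteins that lie next to each other on chromosome 11, were both called higher in A498. The HSPB2 probe lies on hg19 at chromosome 11 from 111784741 to 111784800 and the CRYAB probe at chromosome 11 from 111779576 to 111779635. HSPB2 had levels of 1.95 and 2.48 in A498 and -7.80, -6.52, -7.07 and -6.96 in 786-O. It was well above background on no array of 786-O, so it was tested through A498 alone. CRYAB, which was well above background on all arrays of both lines, had 4.03 and 5.02 in A498 and -3.24, -1.13, -3.03 and -2.09 in 786-O, a mean difference of 7.19 on the log2 scale (SE 0.55, limma adjusted p = 0.00171).

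Among the genes lower in A498, MT1M, a metallothionein, had the largest difference, with levels of -7.52 and -6.68 in A498 and 2.68, 5.62, 4.84 and 3.97 in 786-O. It was at least 623-fold lower in A498, where it was well above background on no array. SLC17A9, the vesicular nucleotide transporter, was at least 522-fold lower, with -7.80 and -5.86 in A498 and 2.95, 4.08, 4.19 and 3.79 in 786-O. GSTP1, the pi class glutathione S-transferase, had -4.63 and -2.78 in A498 and 5.89, 4.90, 7.33 and 7.47 in 786-O. Its probe, at chromosome 11 from 67354050 to 67354109 on hg19, was well above background on all 6 arrays, and the mean difference was -9.94 on the log2 scale. RARRES2, which encodes the secreted adipokine chemerin, had -6.23 and -5.63 in A498 and 3.26, 1.15, 5.29 and 5.93 in 786-O, and within 786-O the arrays with no treatment were the highest. In A498 it was well above background on no array, so it was tested through 786-O alone. SLFN11, a protein that stops stressed replication forks, had -7.73 and -6.91 in A498 and 1.74, 2.14, 2.82 and 2.65 in 786-O, at least 205-fold lower in A498. The bound was 219-fold for SYT13, a synaptotagmin, 203-fold for CHRDL1, a BMP antagonist, 176-fold for H1-5, a linker histone, and 230.5-fold for SOD3, the extracellular superoxide dismutase. The other tested probe of CHRDL1 had a mean difference of -3.003 on the log2 scale and was not called. The bound was 322-fold for RAB34, a small GTPase, 297-fold for PLAAT3, a phospholipase, and 181-fold for OXCT1, the enzyme with which cells use ketone bodies.

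**Figure D2:**
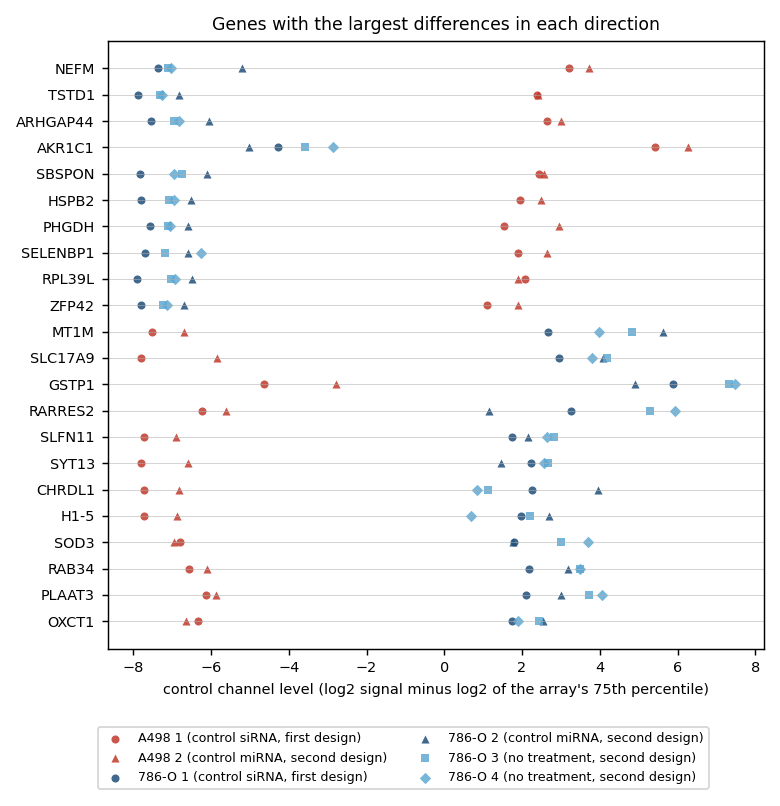
Control channel level (x axis, log2 signal minus log2 of the 75th percentile of the array) of 10 protein-coding genes among the 12 with the largest mean difference towards A498 and of the 12 towards 786-O, with 1 point for each of the 6 arrays, A498 in red and 786-O in blue. For each of the 22 genes drawn all A498 points lie on 1 side of all 786-O points, and GSTP1 was well above background in both lines.

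HIF1A was bright in A498 and not well above background in 786-O. Its level was 1.72 and 1.26 in A498 and -7.82, -6.62, -7.16 and -7.07 in 786-O, so the groups did not overlap, and it was at least 148-fold higher in A498, a description, since it was tested through A498 alone. The probe lies at chromosome 14 from 62214845 to 62214904 on hg19, and a second tested probe was higher in A498 by 5.97 on the log2 scale. HIF1A was well above background on no array of 786-O, while on the 18 control channels of the other lines its level was between 0.39 and 3.28 and always well above background. EPAS1 had 3.10 and 4.52 in A498 and 2.87, 3.79, 4.42 and 4.86 in 786-O and did not pass the test (difference 0.20, SE 0.33, limma adjusted p = 0.747). VHL mRNA had 3.74 and 6.23 in A498 and 4.37, 6.27, 4.09 and 4.11 in 786-O, and its difference changed sign between the designs, -0.64 and 1.40. The second difference is against a mean that includes the 786-O arrays with no treatment. Between the control miRNA arrays alone the levels were close, 6.23 in A498 and 6.27 in 786-O. EGLN1, the main HIF prolyl hydroxylase, was higher in A498 by 1.14 and 1.13 on the 2 designs (limma adjusted p = 0.0416). This call was lost when any 1 of the 3 786-O arrays of the second design was left out. Of 14 pathway genes tested, these 2 were called higher and none lower.

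The targets of the hypoxia-inducible factors went both ways. Of 49 listed genes 47 were tested, and 6 were called higher in A498 and 6 lower, against 6.85% and 4.63% of all tested genes. The median difference of those tested was 0.31 against 0.03 over all genes tested. CXCR4, a chemokine receptor, had 4.34 and 4.72 in A498 and -5.27, -4.22, -2.79 and -3.23 in 786-O. Its mean difference of 8.87 (SE 0.54, limma adjusted p = 9.4e-04) was the largest of the list, and it was well above background on every array of 786-O too. CA9 and CA12, carbonic anhydrases of the cell surface, were both higher in A498. CA12 had 3.20 and 4.68 in A498 and 1.45, 0.65, 1.71 and 1.004 in 786-O. CA9 had -3.25 and -1.94 in A498 and -6.40, -4.03, -6.38 and -6.36 in 786-O, and in 786-O it was well above background on 1 of 4 arrays (limma adjusted p = 0.0489). CA9 was thus tested through A498 alone, and its difference is a description. The remaining higher members were IGFBP3, PLIN2 and LOXL2. Lower in A498 were ENO2, an enolase, with -2.45 and -1.96 in A498 and 0.15, 0.51, 0.76 and 1.10 in 786-O, and EDN1, PDGFB, PFKFB4, PDK1 and HILPDA, which encode an endothelin, a growth factor, regulators of glycolysis and a lipid droplet protein. VEGFA, the angiogenic factor, did not pass the test, with differences of -0.33 and 0.98, and neither did CCND1, which encodes cyclin D1, with -0.90 and -0.19. Leaving out the 12 h or the 24 h control array ended the calls of CA9 and CA12 and left 2 and 3 lower genes of the list. These fits called 344 and 477 of all 14548 tested genes lower, against 674 with all arrays.

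The core of the hypoxia response element, ACGTG or GCGTG on either strand, was searched from 250 bases before to 50 after the start of the genes for which RefSeq (GRCh38.p14) gave a promoter. It is short and was held by 48.4% of 27305 promoters, by 5 of 5 of the targets higher in A498 by 3 of 4 of the lower ones and by 22 of 28 of the targets that were not called. The stretches around the core in 2 genes higher and 1 gene lower in A498 are shown, with the core in capitals, to set genes of both directions side by side. They lie at chr9:35673901-35673923 (- strand), chr2:136118175-136118197 (- strand) and chr12:6914453-6914475 (+ strand), and the cores start at -18, -39 and -118 from the gene's start.
CA9: acgggctgtACGTGcattggaaa
CXCR4: gcgctcggaGCGTGtttttataa
ENO2: cgcgctcgtACGTGcgcctccgc
The match is a description of the letters and does not show a site in use.

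Of the renal lineage factors, 15 were tested and 2 were called, both lower in A498, against 4.63% of all tested genes called lower. WT1, a factor of the nephron progenitor and podocyte, had -7.58 and -6.65 in A498 and -1.70, -1.14, -1.34 and -2.39 in 786-O and was at least 14.7-fold lower in A498. SIM1, a factor of the developing proximal tubule, had -5.79 and -4.83 in A498 and -3.21, -2.51, -1.81 and -1.78 in 786-O, at least 5.99-fold lower. Of 30 proximal tubule genes 17 were tested, 2 were called higher and 1 lower. AQP1, the water channel, had -2.46 and -0.65 in A498 and -4.63, -2.13, -3.41 and -3.62 in 786-O, but its other tested probe had a mean difference of -0.09 and was not called. ANPEP, a brush border peptidase, was higher by 1.97 and 2.40. Both calls were lost without the 12 h or the 24 h control array. ASS1, an enzyme of arginine synthesis, was lower in A498, with -5.67 and -3.94 in A498 and -1.69, 1.43, 0.89 and 0.25 in 786-O. It was well above background on 1 array of A498, so it was tested through 786-O alone. LRP2, which encodes the endocytic receptor megalin, was detected in both lines with 1.09 and 2.67 in A498 and 0.75, 2.49, 2.47 and 2.62 in 786-O and did not pass the test. Of 22 genes of the distal nephron and collecting duct 6 were tested, and SLC26A4 and HSD11B2 were called higher in A498, by 2.74 and 3.18 and by 1.88 and 1.80. The call of HSD11B2 was lost without the 12 h or the 24 h control array and under 7 of 19 alternatives in all, and that of SLC26A4 under 3.

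Of 12 genes that mark injured or dedifferentiated tubule 11 were tested, 4 were called higher and none lower, against 6.85% and 4.63% of all tested genes, and the median difference was 1.16 against 0.03. Beside CRYAB these were CCL2, LCN2 and CLU. CCL2, a chemokine for monocytes, had 5.38 and 4.98 in A498 and 0.32, -0.65, -1.71 and 0.57 in 786-O. LCN2, which encodes the iron carrier lipocalin, had -4.39 and 1.73 in A498 and -7.21, -6.58, -7.15 and -4.98 in 786-O. The 2 A498 arrays were far apart, and no 786-O array was well above background. CLU, which encodes clusterin, was higher by 2.74 and 1.83. The calls of LCN2 and CLU were lost without the 12 h control array.

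Epithelial and mesenchymal genes did not go 1 way. CDH1, which encodes E-cadherin, was well above background on none of the 6 arrays and was not tested. CDH2, N-cadherin, had 4.18 and 3.92 in A498 and 4.06, 4.49, 4.52 and 4.35 in 786-O, and VIM, vimentin, 7.78 and 8.13 in A498 and 7.65, 8.26, 7.85 and 8.39 in 786-O. Neither passed the test (limma adjusted p = 0.481 and 0.944). Of 25 tested junction genes 3 were called higher and 2 lower. DSP, the desmosome linker desmoplakin, had 1.04 and 1.86 in A498 and -5.62, -5.17, -6.16 and -7.32 in 786-O, and CDH3, P-cadherin, was at least 24.4-fold higher in A498. DSP was well above background on 1 array of 786-O, so it was tested through A498 alone. PKP3, a desmosome protein, was the other gene higher in A498, by 2.98 and 2.41. SPINT2, an inhibitor of membrane proteases, had -0.53 and -1.02 in A498 and 3.36, 3.03, 5.13 and 5.33 in 786-O, and CLDN6, a claudin, was at least 6.7-fold lower in A498. EPCAM, the epithelial adhesion molecule, had differences of -3.66 and -3.28 but spread over more than 4 log2 units within 786-O and did not pass the test (limma adjusted p = 0.148). Of 17 tested mesenchymal genes 3 were called higher and 2 lower, against the same shares. The related factors SNAI1 and SNAI2 were called in opposite directions. SNAI1 had 2.03 and 3.27 in A498 and 0.65, 1.67, 1.44 and 1.41 in 786-O, and SNAI2 had -2.47 and -2.91 in A498 and 0.24, -0.79, -1.25 and 0.20 in 786-O. FN1, fibronectin, was lower in A498, with differences of -2.07 and -2.41, and TPM2, a tropomyosin, and FOXC1, a forkhead factor, were higher. KRT18, a keratin of simple epithelia, was the called keratin of 11 tested, higher by 1.20 and 1.50, a call that was lost without the 12 h control array. Without the control miRNA array of 786-O, 6 junction genes were called higher and 4 lower, and 3 keratins higher. That fit called 1320 of all 14548 tested genes higher and 846 lower, against 997 and 674 with all arrays.

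Matrix genes of both directions were found. COL5A1, a fibrillar collagen chain, had 4.46 and 4.30 in A498 and -3.85, -2.20, -2.97 and -2.40 in 786-O, a mean difference of 7.57 (SE 0.43, limma adjusted p = 7.4e-04). COL6A3, a chain of the beaded filament collagen, went the other way, with -7.55 and -7.02 in A498 and -0.01, 1.14, -1.76 and -2.43 in 786-O, at least 32.6-fold lower in A498. COL5A3, COL4A4 and COL4A6 were higher in A498. COL5A1 and COL6A3 each had 1 tested probe that was not called, in the same direction. In all, 4 of 25 tested collagens were higher and 1 lower, against 6.85% and 4.63% of all tested genes. Without the control miRNA array of 786-O 8 were higher, in a fit that called 1320 of all 14548 tested genes higher, against 997. Of 23 other matrix genes 3 were higher and 5 lower, against the same shares. THBS2, a thrombospondin, was at least 70.8-fold higher in A498, and FBLN1, a fibulin, had 4.08 and 2.85 in A498 and -3.59, -2.49, -2.75 and -2.76 in 786-O for its brightest probe. SRPX2, a secreted sushi-repeat protein, was higher by 6.25 and 4.47, a call lost without the 12 h control array. It was well above background on no array of 786-O, so it was tested through A498 alone. NID2, a nidogen of basement membranes, had -5.60 and -6.07 in A498 and 0.59, 1.49, 0.08 and 0.67 in 786-O. NID2 was well above background on no array of A498, so it was tested through 786-O alone. Its other tested probe differed by 0.60 in the opposite direction and was not called. EFEMP2, LUM, CCN1 and LOXL1 were the other genes lower in A498.

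Among laminins and integrins, 4 of 30 tested genes were higher and 2 lower in A498, against 6.85% and 4.63% of all genes. LAMA1, a chain of laminin-111, had 1.92 and 1.59 in A498 and -4.25, -4.94, -4.93 and -6.28 in 786-O. The groups did not overlap, as a description, since LAMA1 was well above background on 1 array of 786-O and was tested through A498 alone. ITGA4, the integrin alpha subunit for fibronectin and VCAM1, was at least 41.3-fold higher in A498 with its brightest probe, and 1 of its 3 tested probes was not called. ITGB8, which activates TGF-beta, was lower, with differences of -2.89 and -3.95, a call lost without the 12 h control array. LAMC3 and ITGA1 were also higher. Of 28 tested proteases and inhibitors 7 were lower and 2 higher in A498, against 4.63% and 6.85% of all genes. MMP2, a gelatinase, had -7.58 and -5.44 in A498 and -0.88, 0.75, -0.43 and 0.01 in 786-O. It was well above background on no array of A498, so it was tested through 786-O alone. ADAMTS5, an aggrecanase, was at least 30.8-fold lower in A498. The plasminogen activators differed in opposite directions. PLAU, the urokinase type, had -1.32 and -1.85 in A498 and 3.97, 4.68, 3.80 and 4.62 in 786-O, and PLAT, the tissue type, had -0.18 and 0.55 in A498 and -4.86, -4.96, -4.27 and -3.95 in 786-O. PLAT was well above background on 3 arrays of 786-O, so it was tested through A498 alone.

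Of 42 tested NRF2 targets and genes of xenobiotic metabolism 13 were called higher in A498, against 6.85% of all genes, and 3 lower. NRF2 is a transcription factor that binds antioxidant response elements, and its targets make and use glutathione and NADPH and detoxify carbonyls. The list held 47 genes, and the median difference of those tested was 1.005, or 1.21 and 1.15 on the designs. AKR1C1, an aldo-keto reductase for steroids and carbonyls, had 5.41 and 6.27 in A498 and -4.28, -5.04, -3.59 and -2.87 in 786-O. AKR1C1 was well above background by this probe on 3 arrays of 786-O, so it was tested through A498 alone. All 3 of its tested probes were higher in A498, by 6.39 to 9.89 on the log2 scale. AKR1C3 had 6.51 and 7.25 in A498 and -0.13, -0.43, 1.57 and 2.45 in 786-O. The genes of this family are near copies of each other, so their probes may share signal. AKR1B10, of a neighbouring branch of the family, had 7.58 and 8.56 in A498 and -0.46, -1.17, 0.63 and 1.02 in 786-O, and both tested probes were called. ABCC2, which pumps conjugates out of the cell, was higher by 6.70 and 5.86, and UGT2B7, a glucuronosyltransferase, by 7.14 and 5.49. SLC7A11, the cystine importer, had 3.56 and 4.43 in A498 and 0.54, -0.52, 1.94 and 1.71 in 786-O. NQO1, a quinone reductase and common NRF2 target, had 1.16 and 1.55 in A498 and -0.81, -0.82, -0.13 and -0.41 in 786-O (limma adjusted p = 0.0116). TXNRD1, thioredoxin reductase, was higher by 1.70 and 1.53, SRXN1, sulfiredoxin, by 1.87 and 2.55, and ABCC3, another exporter, by 2.20 and 2.58. GSTM2, GSTA4 and CYP2J2 were also called higher. GCLC and GCLM, the subunits of the enzyme that limits glutathione synthesis, and HMOX1, heme oxygenase, were not called. Their differences were 0.83 and 1.69 for GCLC, 0.01 and 1.66 for GCLM and 1.50 and 1.21 for HMOX1.

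The 3 lower genes of the list were conjugating enzymes. Beside GSTP1 these were GSTT1 and UGT1A6. GSTT1, the theta class transferase, had -7.39 and -6.96 in A498 and 0.27, 0.04, 1.64 and 2.18 in 786-O, at least 79.8-fold lower in A498. UGT1A6, a glucuronosyltransferase, had -3.33 and -2.97 in A498 and 3.30, 3.15, 4.63 and 5.16 in 786-O. The probe is given under 1 name of a locus whose transcripts share exons, so the value may belong to several of them. ALDH2, the mitochondrial aldehyde dehydrogenase, had differences of -4.06 and -3.53 and did not pass the test (limma adjusted p = 0.288). Without the control miRNA array of 786-O 5 genes of the list were lower. That fit called 846 of all 14548 tested genes lower, against 674.

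**Figure D3:**
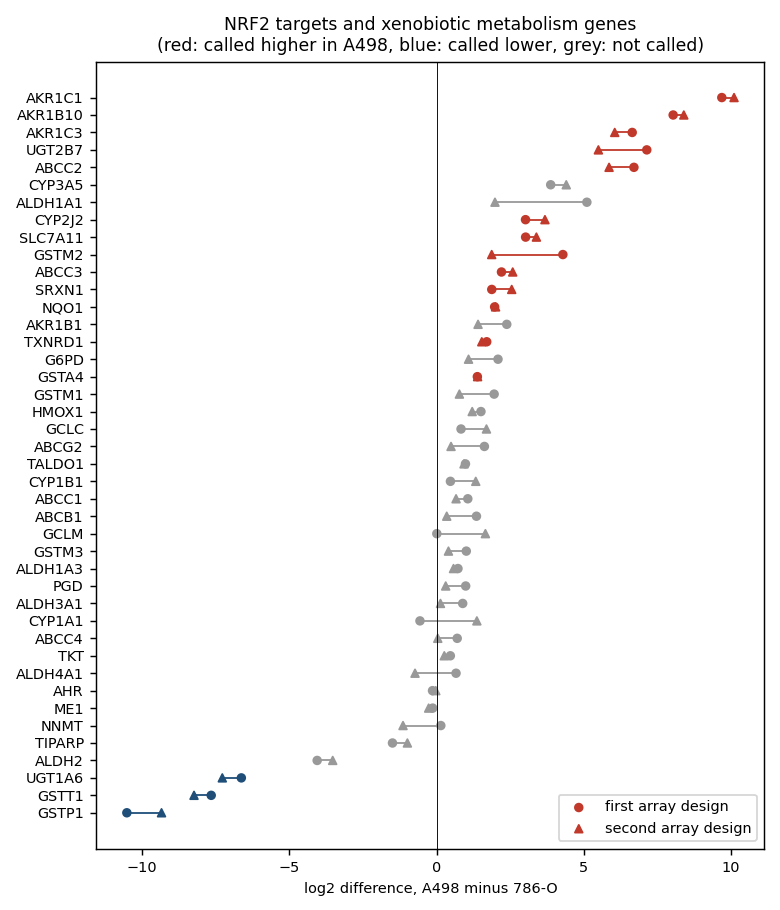
Log2 difference A498 minus 786-O (x axis) of the 42 tested genes of the NRF2 and xenobiotic metabolism list, with a circle for the first and a triangle for the second array design, joined by a line; red genes were called higher in A498, blue genes lower, grey genes were not called. The 13 higher genes run from GSTA4 to AKR1C1, and the 3 lower genes are UGT1A6, GSTT1 and GSTP1.

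The core of the antioxidant response element, TGACNNNGC on either strand, was in the promoter of 2 of 10 higher genes and 1 of 2 lower genes with a promoter in the table, in 5 of 19 genes that were not called, and in 13.6% of all promoters. The stretch of GSTP1, a gene lower in A498, is shown beside those of TXNRD1 and GSTA4, which were higher, with the core in capitals. They lie at chr11:67583737-67583763 (+ strand), chr12:104215671-104215697 (+ strand) and chr6:52995276-52995302 (- strand), and the cores start at -66, -99 and -9 from the gene's start. TXNRD1 held a second core, on the other strand.
GSTP1: ccggcgccgTGACTCAGCactggggcg
TXNRD1: cacgggctaTGACTTCGCtgttgtcac
GSTA4: cgggaccgcTGACCTGGCgctttgtgc
The absence of the core from a window says only that these letters were not in it.

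Metallothioneins are small proteins that bind zinc and copper. Of 10 tested genes 2 were called lower in A498, MT1M and MT1F, and the median difference of the list was -0.47 and -1.31 on the first and second design. MT1F had -3.03 and -3.45 in A498 and 0.05, 1.93, 1.79 and 1.49 in 786-O, a mean difference of -4.13 (SE 0.50, limma adjusted p = 0.00604). MT1E had 3.77 and 4.14 in A498 and 5.14, 7.16, 5.75 and 5.67 in 786-O and did not pass the test (limma adjusted p = 0.077). MT2A, a widely expressed form, had 7.50 and 7.88 in A498 and 7.58, 8.52, 8.11 and 7.58 in 786-O, and MT3, a form of the nervous system, 1.29 and 2.92 in A498 and 1.17, 2.76, 2.60 and 2.79 in 786-O. The lines overlapped for MT2A and MT3. MT1A, MT1B, MT1H, MT1L and MT1X had differences of -0.54 to -0.34 on the first design and of -1.49 to -1.23 on the second, and none passed the test. These genes are near copies, so 1 transcript may give the signal of several probes.

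Of 29 tested receptors of growth factors 6 were called higher in A498 and 1 lower, against 6.85% and 4.63% of all tested genes. ROR2, a WNT5A receptor, was the lower gene, with -7.46 and -6.79 in A498 and -1.11, -0.39, -0.46 and 0.15 in 786-O, at least 29.3-fold. INSR, the insulin receptor, had -2.42 and -1.13 in A498 and -7.51, -5.68, -7.04 and -6.92 in 786-O and was well above background on no array of 786-O. MST1R, the receptor of macrophage-stimulating protein, had -1.41 and 0.07 in A498 and -7.24, -5.04, -4.53 and -5.23 in 786-O. In 786-O it was well above background on 1 array, so it was tested through A498 alone. EPHB6 and TEK were at least 20.9-fold and 9.24-fold higher, and EPHB4 and EPHA7 were also called. MET and EGFR, receptors common on renal tumor cells, did not pass the test. MET had 5.90 and 6.57 in A498 and 5.47, 6.06, 6.40 and 6.33 in 786-O, and EGFR had 0.80 and 1.45 in A498 and 0.18, 0.97, 1.14 and 0.92 in 786-O. The limma adjusted p was 0.27 for MET and 0.19 for EGFR. AXL, a receptor linked to invasion, had an adjusted p of 0.0435 in limma but a difference of -0.87 on the first design, against -2.98 on the second, and was not called.

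Secreted growth factors and their binding proteins included 6 higher and 5 lower genes of 33 tested, against 6.85% and 4.63% of all tested genes. IGFBP1, which binds insulin-like growth factors, had -7.70 and -6.77 in A498 and -0.35, -0.07, 1.40 and 0.58 in 786-O, at least 51.4-fold lower in A498. EREG, an EGF receptor ligand, had -5.27 and -5.04 in A498 and 2.52, 1.86, 0.11 and -1.62 in 786-O, and PGF, a VEGF family member, -7.61 and -6.73 in A498 and 0.55, 0.16, -2.94 and -3.38 in 786-O. Within 786-O both were higher on the transfected than on the untreated arrays, and both calls were lost without the 12 h control array. EREG and PGF were well above background on no array of A498, so they were tested through 786-O alone. VEGFD, a lymphatic growth factor, was at least 3.88-fold higher in A498. IGF1, ANGPT1, FGF7, IGFBP3 and FGF2 were also higher, and BDNF and PDGFB lower. Without the 12 h control array 3 were called higher and 3 lower. That fit called 594 of all 14548 tested genes higher and 344 lower, against 997 and 674.

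In the TGF-beta and BMP pathway 4 of 36 tested genes were higher and 3 lower, against 6.85% and 4.63% of all tested genes. GREM1, a BMP antagonist, was at least 23.2-fold higher in A498, BMP6, a ligand, at least 8.22-fold, and ACVRL1, a type I receptor, at least 4.26-fold. ID2, a target of BMP signals, was lower, with 0.88 and 0.69 in A498 and 3.74, 3.25, 2.43 and 2.87 in 786-O. In the WNT pathway 4 of 33 were higher and 3 lower, against the same shares. WNT7B, a ligand, had -5.28 and -6.67 in A498 and -0.90, -0.52, -1.37 and -1.72 in 786-O, and TCF7L1, a repressor of WNT targets, was at least 19.2-fold higher in A498. WNT7B was well above background on 1 array of A498, so it was tested through 786-O alone. RNF43 and NKD2, inhibitors of the pathway, were higher in A498. Each was well above background on 1 array of 786-O and was tested through A498 alone. RNF43 had differences of 4.45 and 2.87 and NKD2 of 2.38 and 6.18, and both calls were lost without the 12 h or the 24 h control array. LFNG, a glycosyltransferase that modifies Notch, was the called gene of 17 in the Notch pathway, with 1.33 and 1.92 in A498 and 4.16, 4.70, 4.41 and 4.82 in 786-O. LFNG and WNT7B each had 1 tested probe that was not called, in the same direction. Of 31 tested HOX genes 2 were higher and 4 lower in A498, again against 6.85% and 4.63%. HOXA11, which patterns the limb and kidney, had 0.26 and 0.63 in A498 and -2.94, -2.69, -2.80 and -2.28 in 786-O, and HOXC13 was at least 9.57-fold higher in A498. WNT3, LTBP3, BMP2, SMAD2, FZD6 and AXIN2 were the other called genes of both pathways. HOXD1, HOXB8, HOXB9 and HOXC6 were lower, and none of these 4 was called without the 12 h control array.

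All 43 interferon-stimulated genes were tested, 7 were called higher and none lower, against 6.85% and 4.63% of all genes, and the median difference was 1.93 and 0.41 on the first and second design. MX1, a GTPase against RNA viruses, had 5.13 and 2.23 in A498 and -0.97, -2.97, -0.83 and -1.02 in 786-O. OASL, of the oligoadenylate synthetase family, had 3.17 and 2.11 in A498 and -1.04, -1.73, 0.13 and -0.93 in 786-O, and IFI27 had 4.38 and 3.32 in A498 and 1.70, -1.005, 0.62 and 1.002 in 786-O. CMPK2, a mitochondrial kinase, was higher by 4.62 and 2.63. It was well above background on 3 arrays of 786-O, so it was tested through A498 alone. For all 4 genes the A498 array with control siRNA was above that with control miRNA. In 786-O the control miRNA array was the lowest for all 4. With the control miRNA array as the only 786-O array of the second design, 20 of the 43 genes were called higher, and without it 11. Over all 14548 tested genes, these fits called 1780 and 1320 higher, against 997 with all arrays. OAS2, ISG20 and IFI35 were the other genes called. The call of IFI27 was lost without the 12 h, and that of CMPK2 without the 24 h control array.

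The core of the interferon-stimulated response element, 2 copies of GAAA with 2 bases between them on either strand, was in the promoters of 3 of 5 called genes and 18 of 29 other tested genes of the list, against 3.65% of all promoters. Those of MX1, IFI27 and ISG20 lie at chr21:41420560-41420587 (+ strand), chr14:94110619-94110646 (- strand) and chr15:88638938-88638965 (+ strand) of GRCh38.p14, and are shown because these genes were called, with the core in capitals.
MX1: agcagaaatGAAACCGAAActgaattgt
IFI27: attttccagGAAACCGAAActgcagaca
ISG20: aacaaactaGAAACTGAAAcagggtcgg
IFI27 held a further core on the other strand.

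None of the 18 tested genes of MHC class I and antigen processing was called, and their median difference was 0.17. Of 9 tested class II genes HLA-DMA and HLA-DMB, which load peptides onto class II molecules, were higher in A498, against 6.85% of all tested genes. HLA-DMA had -0.35 and -0.18 in A498 and -3.75, -2.68, -3.18 and -2.30 in 786-O. The call of HLA-DMB was lost without the 12 h control array. Of 43 tested cytokines, chemokines and receptors 8 were higher and 4 lower, against 6.85% and 4.63% of all tested genes. Beside CXCR4 and CCL2, CXCL14 was at least 32.6-fold higher in A498, and IL20RB, a subunit of receptors for the IL-20 family, had 2.62 and 3.90 in A498 and -1.90, -1.25, -1.53 and -1.74 in 786-O (limma adjusted p = 8.8e-04). IL1B, CXCL10, CCL5 and C3 were also higher. IL1B had -1.97 and -2.33 in A498 and -7.51, -5.92, -7.13 and -6.82 in 786-O, and CXCL10, the ligand of CXCR3 with which 786-O cells were treated elsewhere in the series, had -1.22 and -3.57 in A498 and -6.88, -6.50, -7.05 and -6.85 in 786-O. Lower in A498 were TNF, CCL28, CXCL5 and LIFR, and TNF had -5.05 and -5.84 in A498 and -1.46, -2.20, -2.01 and -0.54 in 786-O.

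Of 34 tested genes of S phase and mitosis 1 was called. The median difference was -0.23 and -1.96 on the first and second design. The median level was 2.08 and 0.95 on the arrays of A498 and 2.24, 3.52, 3.38 and 2.53 on those of 786-O, so the control miRNA array of A498 stood apart. CCNB2, a mitotic cyclin, was this gene, lower with differences of -1.11 and -2.90, and this call was lost without the 12 h or the 24 h control array. CDKN1A, which encodes p21, had -1.35 and -0.37 in A498 and -1.59, -2.61, 0.40 and 0.94 in 786-O. In 786-O it was higher on both arrays with no treatment than on the transfected ones. CDKN2A had -0.25 and 0.31 in A498 and -1.13, -0.18, -1.09 and -0.76 in 786-O. Of 23 cyclins, CDKs and inhibitors CCNE1, cyclin E1, was called higher, by 1.18 and 1.15 (limma adjusted p = 0.0489), a call that was lost under 10 of 19 alternatives, the most of all named genes, and CDKN2D, the inhibitor p19, lower, with 0.69 and 1.17 in A498 and 2.34, 2.73, 3.30 and 2.95 in 786-O.

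Of 21 tested genes of the PI3K pathway 3 were called higher and 3 lower, against 6.85% and 4.63% of all tested genes. INPP4B, a phosphatase that opposes PI3K, was at least 7.95-fold higher in A498, and DEPTOR, an inhibitor of mTOR, was higher by 3.60 and 1.59. PIK3CD, a catalytic subunit, and IRS1, the adaptor of the insulin receptor, were lower, with differences of -2.26 and -3.01 for PIK3CD and -2.36 and -1.93 for IRS1. The other tested probe of each had mean differences of -2.12 for PIK3CD and -1.29 for IRS1 and was not called. PIK3R3, a regulatory subunit, was the third lower gene of 21 tested. The call of DEPTOR was lost without the 12 h or the 24 h control array. None of 18 tumor suppressor and chromatin genes of renal cancer was called. PBRM1, a subunit of a chromatin remodelling complex, had 0.0039 and -0.0032 in A498 and 0.93, 1.80, 1.25 and 1.29 in 786-O, and its difference was -0.92 and -1.45, short of 1 on the first design (limma adjusted p = 0.0466). SETD2, a histone methyltransferase, had differences of -0.63 and -0.84, and BAP1, a deubiquitinase, of -0.39 and -0.26.

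**Figure D4:**
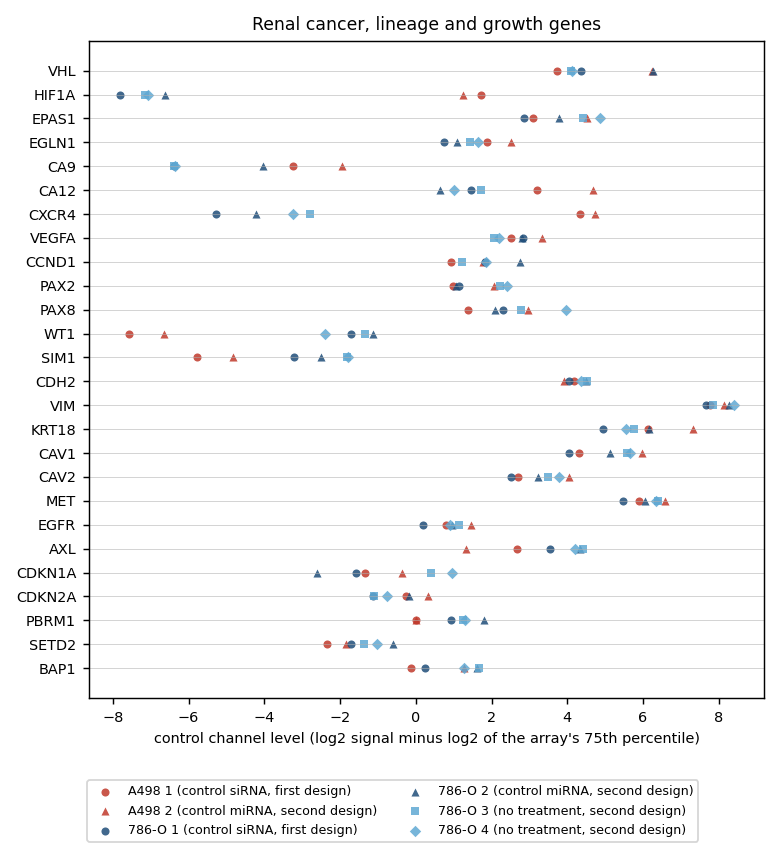
Control channel level (x axis, log2 signal minus log2 of the 75th percentile of the array) of renal cancer, lineage and growth genes, with 1 point for each of the 6 arrays, A498 in red and 786-O in blue. HIF1A and CXCR4 of A498 lie far to the right of 786-O and WT1 far to the left, while the points of EPAS1, PAX2, VIM, MET and CAV1 overlap.

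The caveolin genes did not pass the test. CAV1 had 4.31 and 5.98 in A498 and 4.04, 5.12, 5.56 and 5.65 in 786-O, and CAV2 2.69 and 4.03 in A498 and 2.53, 3.24, 3.49 and 3.78 in 786-O, with limma adjusted p = 0.282 and 0.361. EHD2 and PACSIN3, which bind the neck of caveolae, were higher in A498. EHD2 had differences of 1.90 and 1.93 and PACSIN3 of 1.95 and 2.73. Of 42 lipid metabolism genes 3 were higher and 1 lower. FABP6, a bile acid binding protein, had 2.13 and 1.50 in A498 and -0.61, -0.82, -0.82 and -1.31 in 786-O. PLIN2, which coats lipid droplets, was higher by 1.92 and 1.29, but its other probe was not called. CPT1A and ACSL5 were called in opposite directions, with differences of 1.002 and 2.44 for CPT1A, which brings fatty acids into mitochondria, and -1.81 and -1.05 for ACSL5, which activates them. Both calls were lost without the 12 h or the 24 h control array. PRAME was the called gene of 10 tested cancer-testis antigens, higher by 1.32 and 1.80, a call lost without the 12 h control array. SFN, the squamous marker, which encodes 14-3-3 sigma, had 5.24 and 6.25 in A498 and -1.04, -1.48, 0.87 and -0.27 in 786-O. None of 14 reference genes was called, and their median difference was -0.06.

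**Figure D5:**
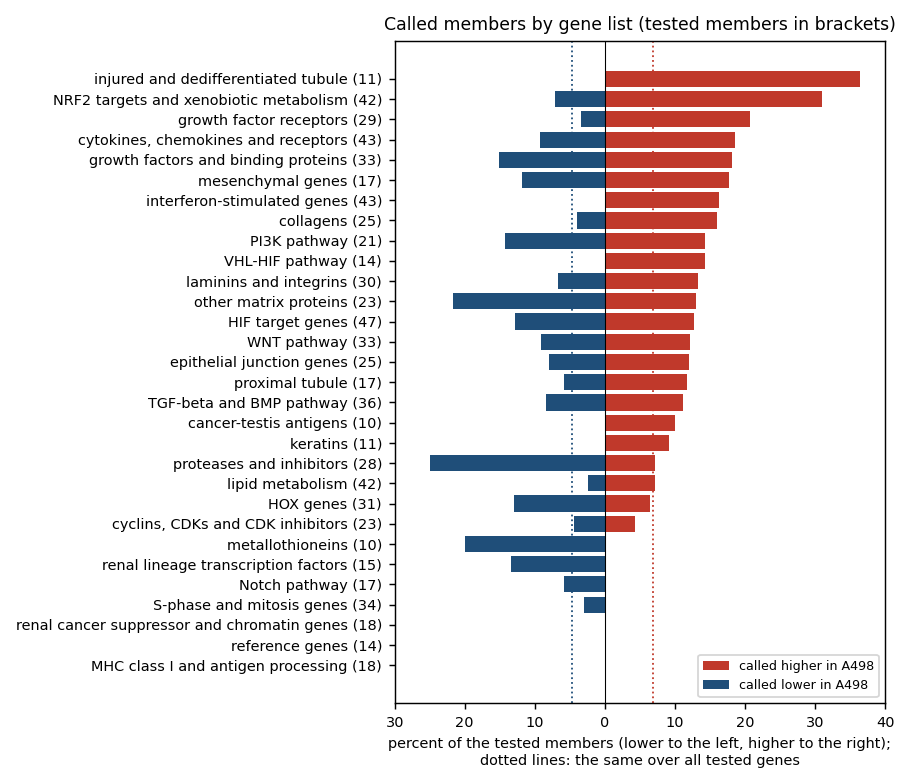
For each gene list drawn, all with at least 10 tested members, the percent of its tested members called higher in A498 (red bars to the right) and called lower (blue bars to the left), with the number tested in brackets and dotted lines at the shares over all tested genes, 6.85% and 4.63%. The lists of injured tubule and of NRF2 and xenobiotic genes have the longest red bars, and that of proteases and inhibitors the longest blue bar.

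Of 578 tested long non-coding RNA genes 52 were called higher and 30 lower in A498, against 6.85% and 4.63% of all tested genes. AFAP1-AS1, antisense to AFAP1, had 1.63 and 2.90 in A498 and -7.30, -6.66, -7.03 and -6.86 in 786-O, at least 253-fold higher in A498. Its probe lies at chromosome 4 from 7779901 to 7779960 on hg19, on the + strand. LINC00942 had 4.41 and 4.60 in A498 and -3.61, -3.20, -3.19 and -3.29 in 786-O, and C1QTNF1-AS1 1.66 and 2.53 in A498 and -5.66, -4.82, -5.70 and -4.16 in 786-O. APCDD1L-DT, at chromosome 20 from 57122923 to 57122982, was at least 77.4-fold lower in A498, and MAGI2-AS3 at least 142-fold. 

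The direction of the differences also varied by chromosome. Genes of chromosome 17 had median differences of 0.37 and 0.37 on the first and second design, and 82 of 901 tested genes were called higher against 14 lower. Genes of chromosome 3, which holds VHL, PBRM1, SETD2 and BAP1 on its short arm, had medians of -0.32 and -0.32, with 35 genes higher and 54 lower of 761. Chromosome 6 had -0.30 and -0.44, with 35 higher and 51 lower of 766, and chromosome 16 had 0.16 and 0.18, with 46 higher and 12 lower of 648. Chromosome 18 had the lowest medians, -0.34 and -0.51, with 9 higher and 9 lower of 195. On chromosome 5 the median changed sign between the designs, -0.01 and 0.05. Over all tested genes the medians were 0.04 and -0.0014. These medians are given as a description with no test, since genes of a chromosome are not independent and both designs use the same lines.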

How the data were processed

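Total RNA, extracted with Trizol, had been hybridized to two-colour arrays with control cells labelled by Cy3 and treated cells by Cy5, per the labels. The authors scanned the arrays and made spot intensities with Agilent Feature Extraction 10.7.3.1, and the deposited processed intensity is background-subtracted and dye-normalized within the array. The annotation build is hg19. Dyes were not swapped, so the lines are compared within 1 dye only.

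From these files, the Cy3 processed intensity was converted to log2, the log2 of the array's 75th percentile over non-control spots was subtracted, and spots of a probe were averaged. Control spots and outlier-flagged spots were left out, which removed 8 of 35649 probes found on both designs. Genes were named through accessions and symbols in RefSeq tables (GRCh38.p14, for names and promoters only), and 29225 probes (82.0%) matched. A probe was tested if it was well above background on every array of at least 1 line, which left 22430 probes and 14548 genes. Each gene is given by its brightest tested probe. limma 3.58.1 in R 4.3.3 was fitted with array design and line as terms and a trended prior over the 6 arrays (3 residual degrees of freedom), with Benjamini-Hochberg adjustment over the 22430 probes. The mean difference is that of the 2 designs with equal weight, and the level of 786-O on the second design is the mean of its 3 arrays. No statement of separate cultures was found, so p-values measure the spread between these arrays, which may be technical. On simulated data with these arrays' spread, 107 of 200 probes raised by 2 and 9 of 200 raised by 1 on the log2 scale were called, with 15 of 21830 unchanged ones. The simulated errors were independent between arrays, with 1 spread for each probe. The real 786-O arrays stood apart by kind of control, so these counts may not hold for them.

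The members and gene lists were chosen with earlier results of these data known. Genes named are the 12 protein-coding genes with the largest mean difference in each direction, up to 4 called members with the largest difference for each of 39 lists, a set of renal cancer genes whatever their values, and the 5 largest non-coding genes. Other members named were chosen after their values were seen. Some genes that the rule names, and 1 list, are not reported here. Of the alternatives, background correction, normalization, the filter, the probe rule, the limit, the test and each 786-O array in turn were varied. The deposited tables of Cy5 over Cy3 log ratios and the arrays of other lines were not used for tests.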

Additional observations from a re-analysis of the deposited data

Results flagged for a closer look

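Among the 4 arrays of 786-O, 1 array lay apart from the other 3 for 5 of 144 named genes, by the ratio of its gap to the nearest array to the whole range, with levels taken relative to the array's median over tested probes. About 1 in 20 groups of 4 like arrays passes this limit by chance. These arrays differ in design and kind of control, so this rate may not hold for them. For NKD2 the highest level was on the control siRNA array, the only 786-O array of the first design. The ratio was 0.877975, and the whole range was 2.70 on the log2 scale. It was 0.845577 for PLAU, which was lowest on the 12 h array with no treatment, over a range of 0.97. For OXCT1 the ratio was 0.830765, with the lowest level on the 24 h array with no treatment and a range of 0.66. For SNAI1 and DES the ratios were 0.845639 and 0.850862, both with the highest level on the control miRNA array, and the ranges were 0.27 and 0.49. For OXCT1, SNAI1, PLAU and DES the difference between the lines was larger than the range of 786-O on both designs. For NKD2 it was 2.38 on the first design, below that range, and 6.18 on the second.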

How the results depend on the processing

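The direction of every called difference among the 124 called genes named by the rule was kept under each of 19 alternatives that gave it a value. Not all of these could have changed a result. Size alone, the adjusted p alone and a limit of 0.5 loosen the rule and can lose no call. These, the limit of 2, a prior with no trend and the kind of control as a term use the same differences, so they cannot turn a direction. Of the counts over all tested genes, those that moved by more than 1.5 times are given here as genes higher and genes lower in A498, against 997 and 674. Background correction by normexp with quantile normalization gave 617 and 376, of which 533 and 373 were among the calls, and it kept 92 of the 124 named genes. Testing only probes that were well above background on all 6 arrays gave 388 and 300, with fewer genes tested. A limit of 2 on the log2 scale gave 335 lower genes. Size alone gave 1687 higher genes, the kind of control as a further term 1555 higher genes, and the control miRNA array as the only 786-O array of the second design 1780 and 1075. The second design alone, with 1 array of A498, which is assumed to vary like 786-O, gave 178 and 148. The Cy5 channel by size alone gave 1773 and 1102. Leaving out 1 array of 786-O at a time gave 594 to 1320 higher and 344 to 846 lower genes, lowest without the 12 h and highest without the control miRNA array, and without the 12 h array 94 of the 124 named genes were kept. The cause of the moves was not tested. Leaving out an array of the first design, or an array of A498, leaves 1 design without both lines, so it was not run. Scaling to the median or by quantiles moved the median difference over all genes from 0.03 to between -0.03 and -0.0059. The replicate numbers only name the arrays, and the pairing by kind of control and slide, with array design as a term, is the fit with the control miRNA array alone given above. Signal over background limits the folds, since 357 of the higher and 212 of the lower genes were well above background on no array of the dimmer line.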

Other observations

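Within 786-O, the arrays with no treatment and the transfected arrays stood apart for many genes. Of 14523 genes, 255 had both untreated arrays above both transfected arrays by more than 2 on the log2 scale, and 68 had the opposite order. These counts are a description with no test, since the control siRNA array is also of another design. ELF3, an epithelial ETS factor, had levels of 1.72 and 1.66 in A498 and -3.85, -2.13, 3.27 and 3.15 in 786-O. DHRS3, a retinal reductase, had 4.21 and 2.96 in A498 and -4.74, -3.33, 2.07 and 2.30 in 786-O, so both A498 arrays were above all arrays of 786-O. DDC, the decarboxylase of dopamine synthesis that is also found in proximal tubule, had -3.71 and -3.34 in A498 and -7.15, -6.85, -1.07 and -0.48 in 786-O. EDN2, which encodes an endothelin, had 0.02 and -0.26 in A498 and -2.93, -0.64, 3.90 and 4.60 in 786-O, with A498 between the transfected and the untreated arrays. CHST1, a sulfotransferase, was among the genes of the opposite order, with -2.18 and -1.65 in A498 and -0.91, -0.93, -6.12 and -5.05 in 786-O. None of these genes was called between the lines.

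On the second design 3660 genes differed by more than 1 on the log2 scale between the control miRNA array of 786-O and the mean of its untreated arrays, and 835 genes between the untreated arrays themselves. Of the 1671 called genes 362 were among the former. PDZK1, a scaffold of the brush border, had differences between the lines of opposite sign on the designs, 2.14 and -2.67, with levels of 0.78 and 0.58 in A498 and -1.36, 0.98, 4.25 and 4.52 in 786-O.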
